A study of Homo sapiens with 2 samples.

Results

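The transcripts of 45 genes of DNA replication and DNA repair were measured in SF-539 cells, a human glioblastoma (GBM) line, with or without knockdown of FKBP9, a peptidyl-prolyl isomerase of the endoplasmic reticulum. The genes were taken by name from a list whose rule uses no measured value, though it was drawn up with earlier results of these data known, and they comprised 33 replication genes and 12 repair genes among the 19951 protein-coding genes and 58735 genes of all kinds in the deposited table. The shControl library came from SF-539 cells stably carrying a lentiviral pGIPZ control vector, and the shFKBP9 library from SF-539 cells carrying the same vector with an FKBP9-shRNA. Both lines were kept in medium with serum and puromycin-selected, and which of the study's shRNA sequences was in the sequenced line is not given in the sources used here. There was 1 RNA-seq library per group, so no difference between the groups has a replicate check, and no test between the conditions was possible. The comparison asks how transcripts of genome duplication and repair differed between a GBM line with FKBP9 and the same line depleted of it.

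Before a cell divides, replication origins are licensed when the origin recognition complex, CDC6 and CDT1 load the ring-shaped MCM helicase onto DNA, and the helicase is started in S phase by CDC45 and the GINS complex. Polymerases held by the sliding clamp PCNA then copy both strands, with nucleotides supplied by ribonucleotide reductase and the thymidylate enzymes. Many of these genes are transcribed in late G1 and S phase under the E2F factors, so their levels in a bulk culture also follow how many cells are in cycle. Repair genes act on broken, crosslinked or mispaired DNA, and several of them, such as BRCA2 and the Fanconi anaemia genes, also protect stalled forks. In a bulk library, fewer cells in cycle and less RNA per cell cannot be told apart.

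The deposited values are FPKM, fragments scaled to the length of the gene and the size of the library. In all, 18116873 fragments lay on genes in shControl and 17158514 in shFKBP9, and the 45 genes held 0.435% and 0.420% of them. FKBP9 itself, the target of the shRNA, was at 49.8 FPKM in the control and at 4.68 FPKM after knockdown. Of 6 glial and glioma markers, VIM had 276.8 and 295.0 FPKM and NES 2.36 and 2.17 FPKM, whereas GFAP, SOX2, S100B and OLIG2 stayed below 1 FPKM in both libraries. Keratinocyte markers had summed levels of 0.127 and 1.24 FPKM in shControl and shFKBP9, with 0 of 4 reaching 1 FPKM, KRT17 and KRT6A being at 0 in shControl. Blood and plasma cell markers summed to 0.090 and 0.731 FPKM, PTPRC being at 0 in both libraries. The part of these cells in the results was not tested.

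Replication genes differed little between the libraries, and the largest differences were in single genes, namely a higher RRM2 and a lower E2F2. The difference of a gene is given as the log2 ratio of shFKBP9 over shControl, formed after adding 0.1 to each FPKM. Brackets after it give a 95% exact interval of the fragments, which covers counting error only and compares these libraries. All 45 genes reached 1 FPKM in both libraries, and the gene with the fewest fragments had 449 in both libraries together. The median log2 ratio was -0.05 over the 33 replication genes, 21 of them lower and 12 higher in shFKBP9, and 0.04 over the 12 repair genes, 4 lower and 8 higher. Over the 10346 protein-coding genes that reached 1 FPKM in either library, the median was -0.02 and 53.7% were lower.

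Counted by interval, 10 replication genes (30.3%) lay wholly below 0, namely MCM2, MCM3, MCM4, MCM5, MCM7, POLD1, POLE, TYMS, E2F2 and UHRF1, where 24.0% of all protein-coding genes tested did so. RRM2 alone lay above 0 (3.03% of the 33), against a background of 19.7%, and the interval of the other 22 replication genes held 0. This count depends on the scaling, since CDC6, GINS3, PCNA and TK1 joined RRM2 to make 5 after scaling by the median ratio, and ORC6 joined them to make 6 after TMM scaling. Both scalings shift every gene upwards alike. The shares of all genes given here are without them, so the counts of 5 and 6 have no matching share beside them. The median replication gene had 2056 fragments, and the background share moves with depth. Below 0 lay 23.1% of the genes with 1000 to 2000 fragments, 30.8% of those with 2000 to 5000 and 25.4% of those within the fragment range of the members. Above 0 lay 19.5%, 24.8% and 20.8% of them. RAD54L and PARP1 (16.7%) lay below 0 and EXO1 (8.33%) above 0 among the repair genes, and the remaining 9 held 0.

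Few of these differences were large. A log2 ratio of 0.32, a fold of 5 to 4, was taken as the limit of a small difference. E2F2 among the replication genes and RAD54L among the repair genes were lower by more than that, where 6.94% of all genes tested were. RRM2 was higher by more than that, where 5.87% were, and no repair gene passed the limit upwards. These calls lie near the limit. E2F2 fell inside it with 1 added to FPKM (-0.29), with scaling by the median ratio (-0.317) and with TMM (-0.31), and RAD54L with 1 added (-0.321), whereas EXO1 passed it upwards with scaling by the median ratio (0.33) and with TMM (0.34). No member differed by 2-fold, a distance that 0.193% of the background passed downwards and 0.213% upwards. The intervals of all 45 genes lay between -0.53 and 0.53, so that a 2-fold difference between these libraries lay outside the counting error of every one of them.

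**Figure D1:**
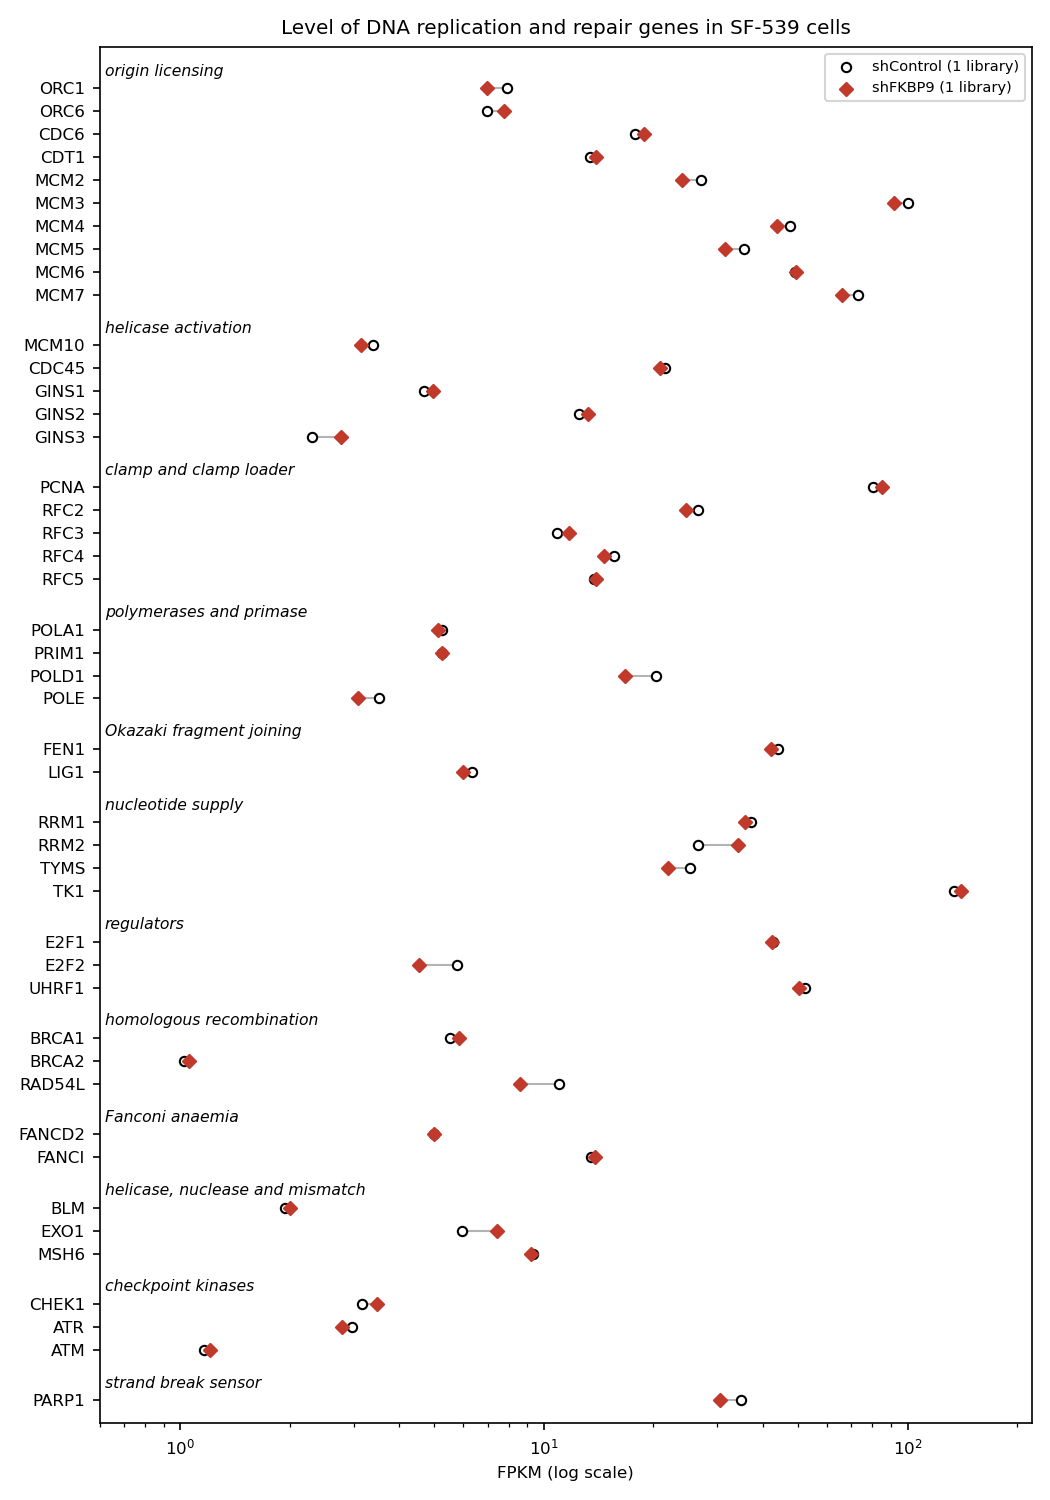
FPKM of the 33 replication genes and 12 repair genes in the shControl and shFKBP9 libraries, on a log axis, ordered by role. Each point is 1 library, and the pair of points of a gene lie close together from BRCA2 at about 1 FPKM to TK1 at 134.3 and 139.9 FPKM.

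**Figure D2:**
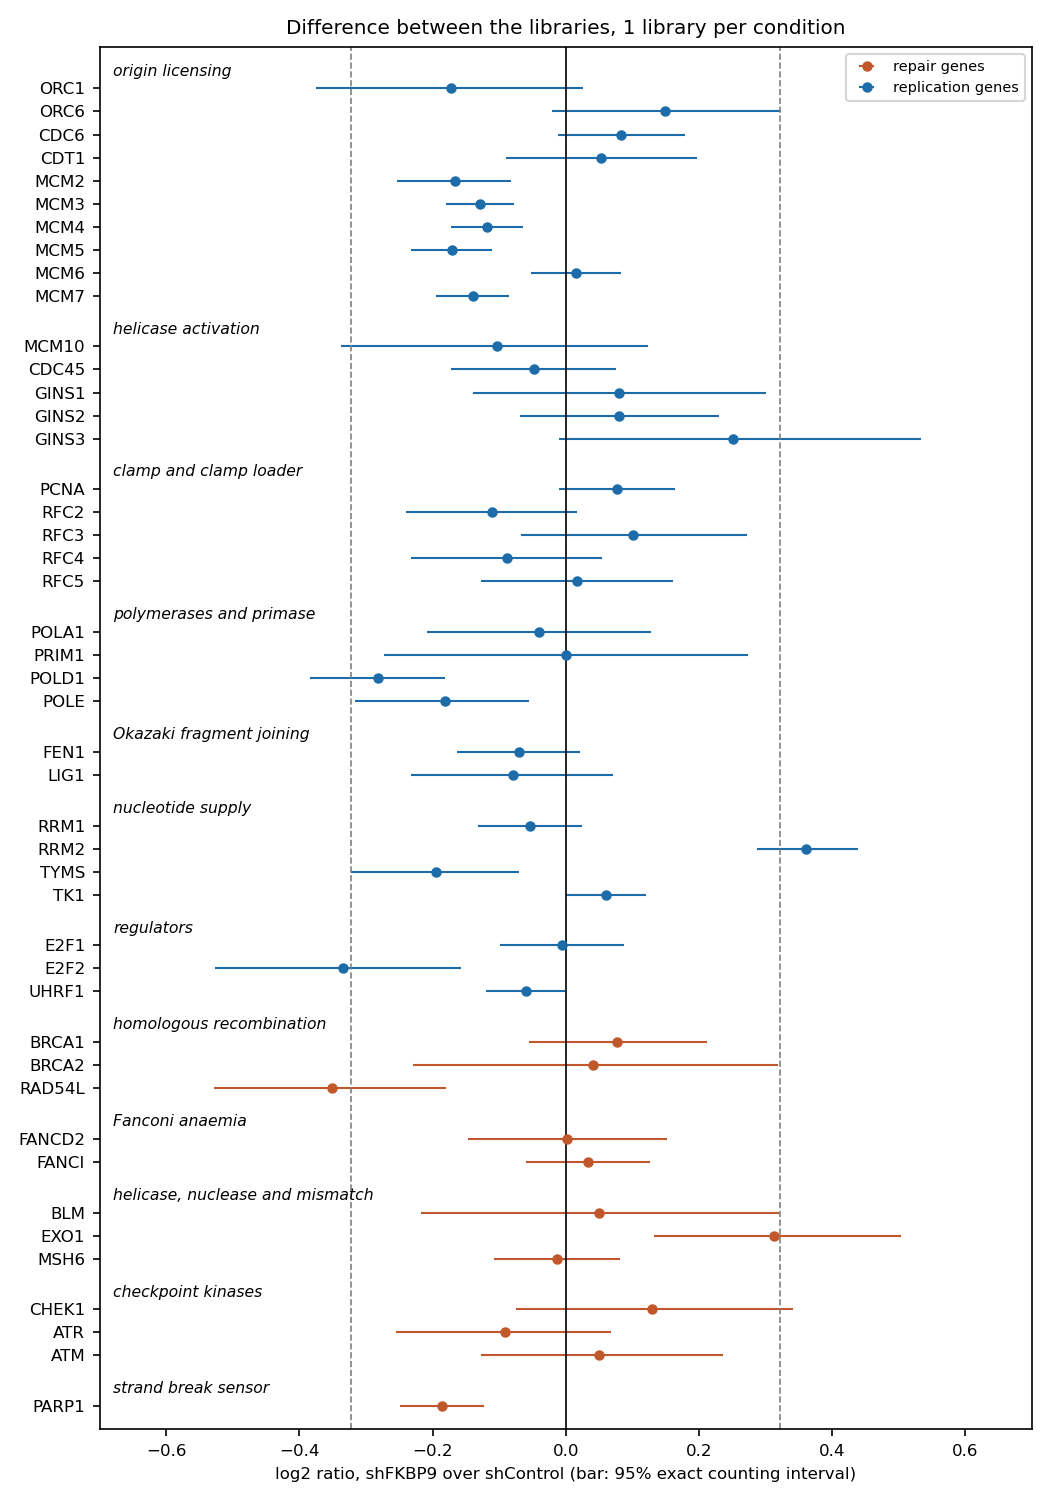
Log2 ratio of shFKBP9 to shControl for each of the 45 genes, with horizontal bars for the 95% counting interval and dashed lines at log2 ratios of -0.32 and 0.32. RRM2 lies beyond the upper line, E2F2 and RAD54L beyond the lower line, and 31 of the 45 intervals hold 0.

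The start-site sequences of 6 replication genes are shown because they carry the letters through which E2F and NF-Y factors are known to act, and because they include E2F2 with E2F1 and MCM6 with MCM3 and MCM7, whose values part below, and RRM2. They are 300 bases of RefSeq sequence in build GRCh38.p14, from 250 bases before to 50 after the start, printed 5′ to 3′ on the strand of the gene. Capitals mark TTTCGCGC or TTTGGCGC (E2F letters) and CCAAT (NF-Y letters) on either strand, so that CCAAT on the opposite strand appears as ATTGG. In MCM6 the E2F letters of both strands overlap, and in MCM7 an E2F string runs into a CCAAT.
MCM3, chr6:52284693-52284992, minus strand: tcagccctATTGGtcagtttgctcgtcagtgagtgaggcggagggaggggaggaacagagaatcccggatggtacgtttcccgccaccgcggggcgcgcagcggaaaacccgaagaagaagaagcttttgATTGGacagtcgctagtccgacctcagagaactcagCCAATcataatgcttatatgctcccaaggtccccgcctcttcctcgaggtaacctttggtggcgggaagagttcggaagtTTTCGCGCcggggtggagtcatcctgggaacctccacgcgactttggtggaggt
MCM6, chr2:135876394-135876693, minus strand: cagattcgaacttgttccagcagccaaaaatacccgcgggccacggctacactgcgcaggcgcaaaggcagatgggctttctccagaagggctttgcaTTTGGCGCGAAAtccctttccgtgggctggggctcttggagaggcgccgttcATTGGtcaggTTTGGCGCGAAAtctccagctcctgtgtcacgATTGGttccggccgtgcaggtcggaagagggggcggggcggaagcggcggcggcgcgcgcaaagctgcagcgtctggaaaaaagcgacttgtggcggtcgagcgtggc
MCM7, chr7:100101348-100101647, minus strand: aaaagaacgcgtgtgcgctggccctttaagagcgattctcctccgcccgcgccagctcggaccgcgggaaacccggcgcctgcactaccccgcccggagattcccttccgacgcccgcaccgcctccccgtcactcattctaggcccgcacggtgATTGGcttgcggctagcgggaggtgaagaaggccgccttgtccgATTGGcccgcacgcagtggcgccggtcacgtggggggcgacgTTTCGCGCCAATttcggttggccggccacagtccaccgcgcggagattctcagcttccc
RRM2, chr2:10122489-10122788, plus strand: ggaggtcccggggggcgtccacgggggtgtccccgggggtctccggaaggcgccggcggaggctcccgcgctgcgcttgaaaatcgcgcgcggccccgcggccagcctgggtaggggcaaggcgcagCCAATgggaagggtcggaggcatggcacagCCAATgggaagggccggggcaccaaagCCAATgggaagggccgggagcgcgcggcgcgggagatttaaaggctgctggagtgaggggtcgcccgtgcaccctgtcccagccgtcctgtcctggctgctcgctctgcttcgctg
E2F1, chr20:33686336-33686635, minus strand: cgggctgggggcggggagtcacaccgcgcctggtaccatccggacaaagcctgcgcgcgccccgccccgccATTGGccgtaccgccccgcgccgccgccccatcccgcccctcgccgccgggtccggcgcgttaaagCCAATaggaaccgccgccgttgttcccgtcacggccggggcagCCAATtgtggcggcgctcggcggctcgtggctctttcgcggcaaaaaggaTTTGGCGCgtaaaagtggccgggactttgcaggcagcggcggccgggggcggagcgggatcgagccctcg
E2F2, chr1:23531184-23531483, minus strand: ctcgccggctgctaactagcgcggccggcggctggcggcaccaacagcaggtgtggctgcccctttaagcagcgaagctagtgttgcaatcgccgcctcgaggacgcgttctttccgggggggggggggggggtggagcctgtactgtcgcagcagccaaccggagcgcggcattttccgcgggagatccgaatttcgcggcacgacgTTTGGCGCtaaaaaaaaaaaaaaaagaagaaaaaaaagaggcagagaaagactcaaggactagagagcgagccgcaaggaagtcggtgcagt

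A window was found for 31 of the 33 replication genes and 11 of the 12 repair genes, the exceptions being MCM4, MCM5 and FANCI. E2F letters stood in 11 of the 41 replication windows (26.8%), in 1 of the 20 repair windows (5.0%) and in 403 of all 35116 windows (1.15%), some genes having several windows. The replication genes with them were MCM2, MCM3, MCM6, MCM7, CDC6, GINS1, POLA1, POLE, E2F1, E2F2 and UHRF1, and the repair gene was EXO1, whose product is an exonuclease. CCAAT stood in 63.4% of the replication windows, 50% of the repair windows and 34.6% of all windows. TTTGAA, the core letters of the CHR element of mitotic genes, stood in 2.44% of replication windows, 5.0% of repair windows and 15.2% of all windows. The letters describe these windows and are not evidence of binding.

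The 11 replication genes with E2F letters had a median log2 ratio of -0.06, and the 20 genes without them one of -0.02. Of the former, 6 had an interval below 0 and 0 above, and of the latter 2 lay below and 1 above, beside 24.0% below and 19.7% above of all genes tested. Their median transcript GC content also differed, at 55.8% and 48.1%, and 40.4% of all genes in the GC decile that holds the former value had an interval below 0. When each gene was set against the median of its GC decile, as described after the gene groups, MCM2, MCM7, POLE and UHRF1 held 0. MCM3 and E2F2 then stayed below 0, and E2F1 lay above it. Of the genes without the letters, POLD1 and TYMS stayed below 0 and RRM1 joined them. ORC6, CDT1, GINS3 and TK1, also without the letters, joined RRM2 above 0. Among the genes with the letters, the log2 ratio ranged from -0.34 in E2F2 to 0.08 in CDC6, whose interval held 0. RRM2 and its partner gene RRM1 were both without E2F letters, and the printed RRM2 window holds 3 copies of CCAAT.

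Among the licensing genes, 5 of the 6 MCM helicase subunits were lower in shFKBP9, each by a small amount. MCM3 had 100.4 FPKM in shControl and 91.9 FPKM in shFKBP9, MCM7 72.9 and 66.2, MCM4 47.4 and 43.6, MCM5 35.5 and 31.6, and MCM2 27.0 and 24.0. These 5 subunits retained 88.8 to 92.1% of the control FPKM. The log2 ratios were -0.13 for MCM3 [-0.18 to -0.08], -0.14 for MCM7 [-0.20 to -0.09], -0.12 for MCM4 [-0.17 to -0.06], -0.17 for MCM5 [-0.23 to -0.11] and -0.17 for MCM2 [-0.25 to -0.08]. MCM6, which sits in the same hexamer, had 48.9 and 49.4 FPKM, a log2 ratio of 0.01 [-0.05 to 0.08].

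Set against the other 5 subunits summed, MCM6 was higher in shFKBP9 by 0.16 [0.08 to 0.23] on the log2 scale, a difference that no scaling of whole libraries can move. This was 1 of 9 pairs computed, all chosen after their values had been seen. The share of MCM6 in the summed FPKM of MCM2 to MCM7 was 14.7% in shControl and 16.1% in shFKBP9, while that of MCM3, the most abundant subunit, was 30.2% and 29.9%. The transcript of MCM6 has a GC content of 43.2% and those of the other 5 have 47.7 to 57.4%. The values that bear on GC content follow the gene groups.

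ORC1, the largest subunit of the origin recognition complex, had 7.89 and 6.99 FPKM, from 451 and 379 fragments, and its log2 ratio was -0.17 [-0.38 to 0.03]. ORC6, another subunit of that complex, had 6.97 and 7.75 FPKM, a log2 ratio of 0.15 [-0.02 to 0.32]. The helicase loaders CDC6, at 17.8 and 18.8 FPKM, and CDT1, at 13.4 and 13.9 FPKM, had log2 ratios of 0.08 [-0.01 to 0.18] and 0.05 [-0.09 to 0.20]. The intervals of these 4 genes held 0, but that of CDC6 lay above 0 with scaling by the median ratio or TMM, that of ORC6 with TMM or GC centring, and that of CDT1 with GC centring. The 5 licensing genes with an interval below 0 were thus all MCM subunits, of which 4 had over 5000 fragments, a depth at which 39.3% of all genes tested lay below 0. With GC centring, described after the gene groups, MCM2 and MCM7 lost that call.

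The intervals of the 5 genes of helicase activation held 0, that of GINS3 only until the libraries were scaled by the median ratio or TMM or centred by GC, when it lay above 0. CDC45, which joins the MCM ring in the active helicase, had 21.6 and 20.9 FPKM, and the log2 ratio was -0.05 [-0.17 to 0.08]. MCM10, which helps the helicase to start, had 3.38 and 3.14 FPKM, a ratio of -0.10 [-0.34 to 0.12]. The GINS subunits all had ratios above 0 with intervals that held 0, GINS1 with 4.67 and 4.94 FPKM, GINS2 with 12.5 and 13.2 FPKM and GINS3 with 2.30 and 2.76 FPKM. The log2 ratio of GINS3 was 0.25 [-0.01 to 0.53], from 213 and 242 fragments, and it differed from GINS2 by 0.18 [-0.13 to 0.49].

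PCNA, the sliding clamp and one of the most used proliferation markers, had 80.5 FPKM in shControl and 84.9 FPKM in shFKBP9. Exactly 2143 fragments were counted in each library, and the log2 ratio was 0.08 [-0.01 to 0.16]. The clamp loader subunits RFC2 at 26.6 and 24.6 FPKM, RFC3 at 10.9 and 11.7 FPKM, RFC4 at 15.6 and 14.7 FPKM and RFC5 at 13.7 and 13.9 FPKM had log2 ratios from -0.11 to 0.10, and every interval held 0. Scaling moved the interval of PCNA above 0 (median ratio and TMM) and that of RFC2 below it (TPM). The median over clamp and loader was 0.02.

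Of the 4 polymerase and primase genes, POLD1 and POLE had an interval below 0 and POLA1 and PRIM1 had one that held 0, and POLE held 0 too with GC centring. POLD1 (ENSG00000062822, chr19:50384204-50418016 of hg38), the catalytic subunit of polymerase delta, had 20.3 FPKM in shControl from 1812 fragments and 16.7 FPKM in shFKBP9 from 1412 fragments. Its log2 ratio of -0.28 [-0.38 to -0.18] was lower than that of all but 9.54% of the protein-coding genes tested. POLE, the catalytic subunit of polymerase epsilon, had 3.51 and 3.09 FPKM, a ratio of -0.18 [-0.32 to -0.06]. POLA1, of polymerase alpha, had 5.26 and 5.11 FPKM, a ratio of -0.04 [-0.21 to 0.13], and PRIM1, the primase, had 5.24 and 5.23 FPKM, a ratio of -0.00 [-0.27 to 0.27]. The difference between POLD1 and PRIM1 was -0.28 [-0.57 to 0.01], so that counting error alone could span it.

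FEN1, which trims the flaps of Okazaki fragments, had 44.2 and 42.0 FPKM, and LIG1, which seals them, had 6.32 and 5.98 FPKM. Their log2 ratios were -0.07 [-0.16 to 0.02] and -0.08 [-0.23 to 0.07]. Neither difference was detectable at this depth.

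Of the replication roles, nucleotide supply held both a gene with its interval above 0 and one with it below. RRM2 (ENSG00000171848, chr2:10120698-10131419 of hg38), the regulated small subunit of ribonucleotide reductase, had 26.6 FPKM in shControl from 2564 fragments and 34.2 FPKM in shFKBP9 from 3125 fragments, the highest log2 ratio of the members at 0.36 [0.29 to 0.44]. RRM1, the large subunit, had 37.0 FPKM in shControl and 35.7 FPKM in shFKBP9, a ratio of -0.05 [-0.13 to 0.02]. The level of RRM1 was 1.39 times that of RRM2 in shControl and 1.04 times in shFKBP9, and the log2 ratios of RRM2 and RRM1 differed by 0.42 [0.31 to 0.53]. Among all members, RRM2 moved from rank 14 to rank 11 by FPKM.

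TYMS, which makes thymidylate from deoxyuridylate, had 25.2 and 22.0 FPKM, from 1125 and 931 fragments, a log2 ratio of -0.20 [-0.32 to -0.07]. TK1, which salvages thymidine, was the most abundant member at 134.3 and 139.9 FPKM, with a ratio of 0.06 [-0.00 to 0.12]. TYMS was lower relative to TK1 by -0.26 [-0.40 to -0.12]. The exons of TYMS share 39.9% of their bases with ENOSF1 on the opposite strand, whose FPKM was 5.81 and 5.84, and whether the counting used strand is not stated. If it did not, reads of these genes cannot be told apart.

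Among the regulators, E2F1, an activator of S-phase genes, had 42.6 FPKM in shControl and 42.4 FPKM in shFKBP9, a log2 ratio of -0.01 [-0.10 to 0.09]. E2F2 (ENSG00000007968, chr1:23506430-23531220 of hg38), the related activator, had 5.75 FPKM from 568 fragments and 4.54 FPKM from 425 fragments, the lowest ratio among the replication genes at -0.34 [-0.53 to -0.16]. E2F1 exceeded E2F2 by 7.41 times in shControl and by 9.35 times in shFKBP9, and the log2 ratio of E2F2 was below that of E2F1 by -0.34 [-0.54 to -0.13]. UHRF1, which keeps DNA methylation through replication, had 52.4 and 50.2 FPKM, a ratio of -0.06 [-0.12 to -0.00] whose interval ended just short of 0 and held 0 under several other settings.

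The repair genes were expressed at lower levels than the replication genes, with a median of 5.25 FPKM in shControl and 5.41 FPKM in shFKBP9 against 20.3 and 18.8 FPKM. RAD54L (ENSG00000085999, chr1:46247688-46278473 of hg38), a motor protein of homologous recombination, had 11.0 FPKM in shControl from 639 fragments and 8.60 FPKM in shFKBP9 from 474 fragments. Its log2 ratio of -0.35 [-0.53 to -0.18] was the lowest of all members, and 5.60% of the protein-coding genes tested had a lower one. BRCA1 had 5.53 and 5.84 FPKM, a ratio of 0.08 [-0.06 to 0.21], and BRCA2, which acts in the same pathway, had 1.02 and 1.05 FPKM, a ratio of 0.04 [-0.23 to 0.32]. The interval of RAD54L did not overlap that of BRCA1, and it overlapped that of BRCA2. RAD54L shares 19.9% of its exon bases with LRRC41 on the opposite strand, which had 14.0 and 12.9 FPKM.

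EXO1 (ENSG00000174371, chr1:241847967-241895148 of hg38), the nuclease that resects ends and serves mismatch repair, had 5.95 FPKM in shControl from 446 fragments and 7.41 FPKM in shFKBP9 from 527 fragments. Its log2 ratio of 0.31 [0.13 to 0.50] came next to that of RRM2 among the members and lay just inside the limit of 0.32. RAD54L and EXO1, with similar fragment numbers, differed from each other by -0.67 [-0.93 to -0.42]. They are the lowest and the highest of the repair genes and were paired after their values had been seen, so the interval is no check of the difference. Their transcripts also differ in GC content, at 53.0% in RAD54L and 42.4% in EXO1. BLM, a helicase that works with EXO1, had 1.94 and 2.01 FPKM, a ratio of 0.05 [-0.22 to 0.32]. MSH6, the mismatch sensor, had 9.32 and 9.24 FPKM, a ratio of -0.01 [-0.11 to 0.08], and 22.7% of its exon bases lie opposite FBXO11, which had 3.74 and 3.71 FPKM.

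PARP1, which marks DNA strand breaks with poly(ADP-ribose), was the most abundant repair gene, with 34.7 and 30.5 FPKM. The ratio was -0.19 [-0.25 to -0.12], from 4510 and 3758 fragments. PARP1 was lower relative to MSH6 by -0.17 [-0.29 to -0.06]. Its level was 34.0 times that of BRCA2, the least abundant member, in shControl and 29.0 times in shFKBP9.

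The Fanconi anaemia genes FANCD2 and FANCI, whose products are clamped together on crosslinked DNA, had nearly the same level in both libraries, at 4.97 and 4.98 FPKM and at 13.5 and 13.8 FPKM. Their log2 ratios were 0.00 [-0.15 to 0.15] and 0.03 [-0.06 to 0.13]. The checkpoint kinases gave no interval apart from 0. CHEK1 had 3.16 and 3.46 FPKM with a ratio of 0.13 [-0.07 to 0.34], ATR 2.97 and 2.78 FPKM with -0.09 [-0.26 to 0.07], and ATM 1.16 and 1.21 FPKM with 0.05 [-0.13 to 0.24].

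The order of levels was almost the same in both libraries. TK1, MCM3, PCNA, MCM7, UHRF1, MCM6 and MCM4 held the first 7 places in each, and GINS3, BLM, ATM and BRCA2 the last 4. The largest shift was that of E2F2, from rank 32 to rank 37.

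The log2 ratio of the members moved with the GC content of their transcripts. Of the 23 members with the higher GC content, 45.9 to 64.8%, 12 had an interval below 0 and 0 above, with a median of -0.12. Of the 22 members with 36.2 to 45.0%, 0 lay below and 2 above, RRM2 and EXO1, with a median of 0.04. Spearman's rho between log2 ratio and GC content was -0.54 over the 45 genes, with Pearson's r at -0.50. The points share the same pair of libraries, and genes are not replicates.

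The same relation ran through the whole transcriptome, with a rho of -0.45 over 10329 protein-coding genes. The median log2 ratio was 0.15 in the decile of genes with the lowest GC content, where 3.86% had an interval below 0 and 43.4% above. In the decile with the highest GC content the median was -0.12, with 39.3% below and 7.26% above. Against gene length, rho was -0.02 over the 45 members, -0.21 over the replication genes, -0.13 over the 94 other genes of these pathways and 0.00 over all genes.

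When each gene was set against the median of its own GC decile, an alternative added after the relation had been seen, 6 of the 10 replication genes kept an interval below 0. These were MCM3 at -0.06, MCM4 at -0.09, MCM5 at -0.07, POLD1 at -0.16, TYMS at -0.13 and E2F2 at -0.24. MCM2, MCM7, POLE and UHRF1 then held 0, and RRM1 at -0.12 lay below it. MCM6 was then at -0.01 and the other 5 subunits at -0.09 to -0.04, so the gap between them was smaller than before centring. RRM2, at 0.30, stayed above 0 and was joined by ORC6, CDT1, GINS3, TK1 and E2F1 at 0.11 to 0.28. Among repair genes RAD54L at -0.26 and PARP1 at -0.12 stayed below 0, ATR at -0.21 joined them, and EXO1 at 0.25 stayed above. The medians were then -0.02 for replication and -0.03 for repair, and no member passed 0.32 in either direction. Of all genes so centred 16.7% lay below 0 and 18.8% above, beside 7 below and 6 above of the 33 replication genes.

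Further genes of the same pathways also had medians near 0, on the other side of it from those of the members. Centred by GC decile, that contrast was gone for repair, with -0.03 for members and other genes alike, and the other replication genes had a median of 0.004. Of 49 other replication genes, 44 reached 1 FPKM in either library, with a median log2 ratio of 0.04. An interval below 0 was found for 10 of them (22.7%) and one above 0 for 5 (11.4%), against 24.0% and 19.7% of all genes tested. These counts turned to 6 below and 8 above with TMM, and were 7 and 7 with the median ratio, 4 and 4 with GC centring, 6 and 2 with a 99% interval and 6 and 2 with the exact binomial test. Of all genes centred by GC decile, 16.7% lay below 0 and 18.8% above. The shares of all genes under the other settings are not given, and TMM and the median ratio shift every gene alike. With the values as reported, 0 passed 0.32 in either direction. The lowest were CHAF1B, of the chromatin assembly factor, at -0.26 [-0.42 to -0.10], TICRR, which helps origins fire, at -0.24 [-0.40 to -0.08], and DNMT1, the maintenance methyltransferase that UHRF1 recruits, at -0.23 [-0.29 to -0.18]. The highest were ORC5 at 0.25 [0.03 to 0.48], the origin kinase CDC7 at 0.20 [-0.06 to 0.47] and RFC1, the large clamp loader subunit, at 0.19 [0.08 to 0.31].

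Of 56 other repair genes, 50 reached the minimum, with a median of -0.04, 13 intervals below 0 (26.0%) and 8 above (16.0%), against the same 24.0% and 19.7%. The number above 0 was 3 with GC centring, where 18.8% of all genes lay above 0. It was 3 with a 99% interval and 4 with the exact binomial test, for which the shares of all genes are not given. Past -0.32 were 3 of them, where 6.94% of all genes tested were, FANCC of the Fanconi core complex at -0.44 [-0.69 to -0.25], LIG3, a ligase of single-strand break repair, at -0.44 [-0.65 to -0.26] and ERCC2, a helicase of nucleotide excision repair, at -0.33 [-0.50 to -0.17]. Past 0.32 were 2 genes, where 5.87% of all genes tested were, the higher being XRCC2 of homologous recombination at 0.37 [0.19 to 0.58], and the excision nuclease ERCC4 was at 0.25 [0.03 to 0.50]. Exon bases are shared with a gene on the opposite strand in LIG3 (29.1%, with RFFL at 1.89 and 1.92 FPKM) and in TICRR (7.0%, with KIF7 at 18.1 and 12.6 FPKM), so the doubt about strand holds for them as well. Over the 94 other replication and repair genes, rho between log2 ratio and GC content was -0.63.

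Genes of other cell cycle phases were set beside them. The 10 mitosis genes had a median log2 ratio of 0.07, with 1 interval below 0 and 5 above (10% and 50% of them, against 24.0% and 19.7% of all genes tested), from PLK1 at -0.13 [-0.20 to -0.06] to CDK1 at 0.30 [0.20 to 0.39]. Their median was 5939 fragments, and of all genes with over 5000 fragments 39.3% lay below 0 and 29.6% above. In the GC decile that holds their median GC content, 9.18% of all genes lay below 0 and 29.7% above. The 9 G1 genes had a median of 0.06, with 1 interval below 0 and 3 above (11.1% and 33.3%). CDK2 was the lowest at -0.20 [-0.32 to -0.08] and CCNE2, the cyclin partner of CDK2 at the start of S phase, the highest at 0.72 [0.42 to 1.11], with 1.47 and 2.49 FPKM from 117 and 188 fragments. Of the exon bases of CCNE2, 37.0% lie opposite INTS8, which had 3.11 and 3.46 FPKM. Median GC content was 42.0% for the mitosis genes, 47.7% for the G1 genes, 48.9% for the replication genes and 42.1% for the repair genes. The part of GC content in the differences between these lists was not tested.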

How the data were processed

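The authors sequenced RNA of the control and FKBP9-knockdown SF-539 lines as paired-end libraries, 1 per group. Per the labels and methods, reads were aligned to hg38 with HISAT2 2.0.5, counted per gene with featureCounts 1.5.0-p3 and analysed by the authors with edgeR, and the deposited values are FPKM, that is, fragments divided by gene length and library size. Whether counting used strand is not stated. Of other columns with values of a library there were 0.

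Here fragments were recovered as FPKM times gene length over the step of the library (100% whole, tolerance 0.001). Log2 ratios used 0.1 added to FPKM, a minimum of 1 FPKM in either library and exact Clopper-Pearson intervals at 95%, which cover counting error only. A difference between members was bounded by the exact conditional interval of the odds ratio. Transcript GC content and exon overlap came from GENCODE release 44, promoters from RefSeq. The members and lists were chosen with earlier results of these data known. Named beyond the members and FKBP9 are the 3 highest and 3 lowest genes of each pathway list among genes with at least 1 FPKM in a library and at least 50 fragments together, the extremes of the mitosis and G1 lists, the markers and genes overlapping a named gene, and, chosen after its values were seen, RNASEH2A. Some genes that this rule names are not reported here.

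Alternatives were 1 or 0.01 added to FPKM, scaling by the median ratio, TPM or TMM, no minimum, a minimum in both libraries, a 99% interval and an exact binomial test, and, added after the data were seen, centring by GC decile and leaving out overlapped members. The fragment recovery and intervals were tested on simulated data. Calculations used scipy 1.17.1, numpy 2.4.6 and pandas 2.3.3 under Python 3.11.15, and plots matplotlib 3.10.9.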

Additional observations from a re-analysis of the deposited data

How the results depend on the processing

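With 1 library per group, culture, clone, library and the shRNA cannot be told apart, and intervals cover counting error only. No paired analysis was possible because each group holds 1 library. The scalings shifted every log2 ratio by 0.02 (median ratio), -0.02 (TPM) or 0.03 (TMM). Across all alternatives the median of the replication genes lay between -0.07 and -0.02 and that of the repair genes between -0.03 and 0.06, the lower end under centring by GC decile, where the sign of the repair median turned. The number of replication genes with an interval below 0 ranged from 7 to 11. The number above 0, 1 as reported, was 5 with scaling by the median ratio, 6 with TMM and 6 when centred by GC decile. Past a log2 ratio of 0.32 in size, E2F2 was lost with 1 added, the median ratio and TMM, RAD54L with 1 added, and RRM2, E2F2 and RAD54L when centred by GC decile, while EXO1 was gained with the median ratio and TMM. Repair genes below 0 numbered 1 without overlapped members, since RAD54L is among those left out. Centred by GC decile, the sign turned in MCM6, CDC45, RFC3, RFC5, FEN1, LIG1, E2F1, UHRF1, BRCA2, FANCD2, BLM and ATM. Of these, UHRF1 had an interval below 0 as reported and was then at 0.0383, with an interval that held 0. E2F1, at 0.11, was the only one whose centred interval left out 0. The repair gene above 0 numbered 1 under every alternative.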

Other observations

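RNASEH2A is the catalytic subunit of ribonuclease H2, which removes ribonucleotides from DNA. It had 0.61 FPKM in shControl from 40 fragments and 0.21 FPKM in shFKBP9 from 13 fragments, a log2 ratio of -1.20 [-2.57 to -0.61]. RNASEH2A is one of the 5 other replication genes below the minimum of 1 FPKM, and 53.3% of its exon bases are shared with THSD8 on the same strand.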
